A study of Mus musculus with 12 samples.

Results

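The genes described here are 5 components of bone morphogenetic protein (BMP) and TGF-beta signalling. They are the ligand gene Bmp2, the receptor genes Bmpr1b and Acvr1b, and the genes of the ubiquitin ligases Smurf1 and Smurf2. They were selected on the deposited values themselves, since each of them had a row in one of the tables of m6A peaks that differed between senescent and young cells. They account for 5 of the 633 genes and for 9 of the 1043 rows in those tables. That a gene was listed, its direction and its fold are therefore a description of the choice and were not tested.

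The cells were mouse embryonic fibroblasts (MEFs) from C57BL/6 embryos, primary cells that stop dividing after some passages, and the labels name no transgene, drug or knockdown in any library. Senescent MEFs at passage 9 (P9) were set against young MEFs at passage 3 (P3), and each passage had 3 libraries of captured RNA and 3 of input RNA, 12 in all. In MeRIP-seq, RNA fragments that carry m6A are captured with an antibody, and m6A peaks are the stretches of a transcript enriched in the captured fragments over the input. The tables name their groups Treatment and Control, which were read as P9 and P3 since the row totals in either direction match those in the paper, and every direction below rests on that reading. They give no value per library, so a fold below has neither a spread over replicates nor a known depth, and the replicates behind it cannot be compared. The labels do not say whether the 3 replicates of a passage came from separate embryos. The MEF identity could not be checked on expression, and none of the 21 marker genes of fibroblasts, epithelial cells, macrophages and endothelial cells was listed. In bulk RNA, fewer cells of a type and less RNA per cell cannot be told apart.

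BMP and TGF-beta ligands bind pairs of type I and type II receptor kinases at the cell surface, and the type I receptor phosphorylates Smad proteins that enter the nucleus and change transcription. The BMP branch is known for its part in bone, limb and body axis formation, and the activin and TGF-beta branch for matrix production in fibroblasts. Ubiquitin ligases of the NEDD4 family, to which SMURF1 and SMURF2 belong, mark Smads and receptors for degradation and so limit both branches. The m6A mark is written on mRNA mainly around stop codons and in 3' UTRs, where proteins that bind it can alter the decay or translation of the mRNA.

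Of the 5 genes, 4 had a peak that was higher in P9 than in P3 MEFs (Bmp2, Bmpr1b, Acvr1b and Smurf1) and Smurf2 had a peak that was lower. By rows, 8 of the 9 were higher, against 80.5% of all rows in the tables, and by genes 4 of 5 had a higher peak, against 80.7% of all listed genes. The share of higher peaks among the 5 genes was thus close to that of the tables as a whole. The 4 genes with a higher peak had a median fold of 2.00 with 1 peak per gene, beside 1.73 over all 511 genes with a higher peak. The fold is the linear ratio of P9 to P3, and the p-value beside it is that of the authors' comparison, so it is a value read from the tables and not a test made here. The sources used here do not say whether the fold was divided by the input or whether the p-value was adjusted. A change in the amount of an mRNA and a change in its methylation can therefore not be told apart.

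**Figure D1:**
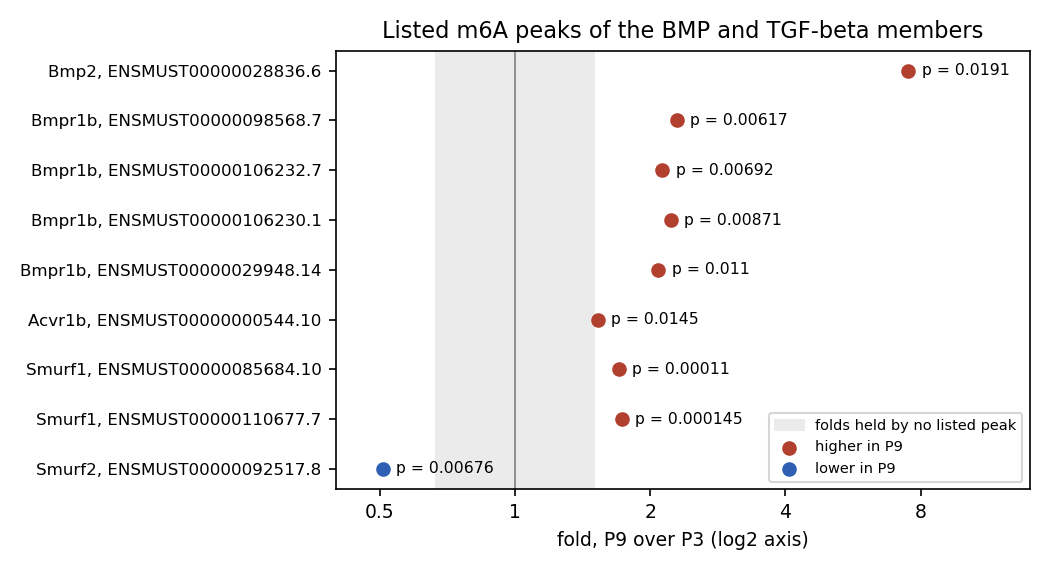
Fold of P9 over P3 (log2 axis) for each of the 9 listed peaks of the 5 genes, with 1 point per gene and transcript and the deposited p-value beside it; red points are higher and blue points lower in P9 MEFs. The grey band spans the folds between 0.667 and 1.5 that no listed peak held. Bmp2 lies far to the right at 7.52, the 4 Bmpr1b transcripts lie together between 2.08 and 2.30, and Smurf2 is the only point left of 1.

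Bmp2 encodes a secreted BMP ligand that drives bone and cartilage formation. Its peak lay in the 3' UTR, on chromosome 2 of mm10 from 133562437 to 133562586 on the plus strand, and was listed for transcript ENSMUST00000028836.6. The fold of 7.52 (the authors' p = 0.0191) ranked 6 by size among the 511 genes with a higher peak, a rank shared with another gene of the same fold. By p-value Bmp2 ranked 269, in a tie of 6 genes, so that the Bmp2 peak combined an extreme ratio with a p-value in the middle of the table. The peak was short, at 150 nt, beside a median of 269 nt over all higher peaks, and covered 4.22% of the 3555 nt transcript. It ended 310 nt short of the 3' end that RefSeq gives for the gene. The levels behind the ratio were not used here, so a low level in P3 could not be told from a high level in P9.

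Bmpr1b encodes a type I receptor that BMP ligands bind. It had 1 site, listed for 4 transcripts, which carried the labels of both coding sequence and 3' UTR and lay on the minus strand of chromosome 3 from 141840378 to 141840708. The fold was 2.30 on ENSMUST00000098568.7 (the authors' p = 0.00617), 2.13 on ENSMUST00000106232.7 (p = 0.00692), 2.22 on ENSMUST00000106230.1 (p = 0.00871) and 2.08 on ENSMUST00000029948.14 (p = 0.0110). The transcripts ran from 1910 to 5349 nt in length, but the listed intervals of 299 to 331 nt differed by at most 20 nt at their starts and 17 nt at their ends. The 4 rows thus describe 1 stretch of RNA where the coding sequence meets the 3' UTR and share reads, and they are not 4 measurements. The largest of the 4 folds was 1.1 times the smallest, and of the 236 sites in the tables with several transcripts 37, this one included, differed at least as much, against a median ratio of 1.02. Bmpr1b ranked 96 by fold and 126 by p-value among the 511 genes, so that the measures placed it alike.

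Acvr1b encodes a type I receptor for activins, which signals through the same Smads as the TGF-beta receptor. Its peak lay in the 3' UTR, on the plus strand at 101210907 to 101211384 of chromosome 15, in transcript ENSMUST00000000544.10. The fold of 1.53 (the authors' p = 0.0145) lay just above the smallest fold of any higher peak, 1.5, and ranked 455 of 511. Acvr1b therefore had the smallest change of the 5 genes and lay nearest to the fold at which the tables end. At 478 nt the peak was also the longest of the 5, and it covered 10.8% of the 4413 nt transcript. The receptors with a listed peak thus differed in the size of the change and in the labels of the peak. Bmpr1b carried those of coding sequence and 3' UTR, and Acvr1b that of the 3' UTR alone. The Bmpr1b site lay 3243 nt and the Acvr1b peak 2300 nt short of the gene's 3' end in RefSeq, counted along the genome. That end can lie beyond the end of a listed transcript. The Bmpr1b transcripts ENSMUST00000098568.7 and ENSMUST00000106230.1, at 1910 and 2147 nt, were shorter than the distance given for the site. How far the Acvr1b peak lay from its stop codon was not measured. The difference between the receptors was not tested.

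Smurf1 and Smurf2 encode closely related ligases that act on BMP and TGF-beta Smads and receptors, and their peaks had opposite directions. The Smurf1 peak lay in the 3' UTR on the minus strand of chromosome 5, from 144878352 to 144878621 on transcript ENSMUST00000085684.10, with a fold of 1.71 (the authors' p = 0.000110). On ENSMUST00000110677.7 the interval began at 144878381 and ended at the same base, with a fold of 1.73 (the authors' p = 0.000145). Both Smurf1 rows came from 1 site, and the choice of the transcript moved its fold by a ratio of 1.01. Smurf1 ranked 265 by fold and 18 by p-value among the 511 genes, the reverse of Bmp2, with a change of middling size and one of the smaller p-values in the table. The site lay 1857 nt short of the gene's 3' end in RefSeq.

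The Smurf2 peak lay at the other end of its transcript, in the 5' UTR and the first part of the coding sequence. It was listed for ENSMUST00000092517.8 on the minus strand of chromosome 11, with a fold of 0.507 (the authors' p = 0.00676), and ranked 35 by the size of the change and 52 by p-value among the 131 genes with a lower peak, which were 20.7% of the listed genes. The peak was made of 328 nt in 3 exon blocks spread over 48859 bases of the genome. The block nearest the 5' end, from 106920181 to 106920440, held 260 nt or 79.3% of the peak, and the blocks downstream of it held 39 nt (from 106875901 to 106875939) and 29 nt (from 106871582 to 106871610). Most of the Smurf2 peak thus lay in 1 exon, 307 nt downstream of the gene's 5' end in RefSeq. Peaks with several blocks were common among the lower rows (53.2%) and less so among the higher rows (20.2%), and none of the 8 higher rows of the 5 genes had more than 1 block. No Smurf1 peak was listed at the 5' end and no Smurf2 peak in the 3' UTR, so the opposite directions were measured in different parts of the mRNAs and not at a matched place, and the difference between the genes was not tested.

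**Figure D2:**
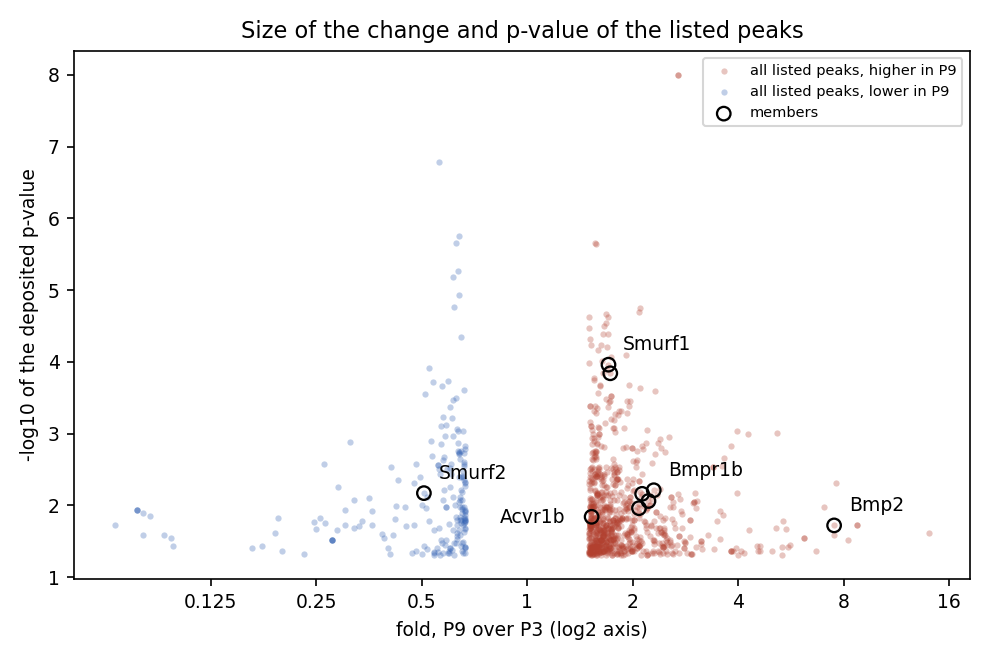
Fold of P9 over P3 (log2 axis) against -log10 of the deposited p-value for the listed peaks, red for higher and blue for lower in P9 MEFs; open circles mark the 9 peaks of the 5 genes, with the gene name at the transcript of smallest p. Bmp2 lies at a large fold and a p of 0.0191, Smurf1 at a fold of 1.71 and a p of 0.000110, and 6 peaks with a fold above 20 or a p under 1e-08 lie outside the axes.

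None of the 9 peaks overlapped another gene in RefSeq. Within the 3' UTR, the Bmp2, Smurf1 and Acvr1b peaks lay at differing distances from the 3' end of the gene, which can lie beyond the end of the listed transcript. Over the 267 genes whose higher peak lay in the 3' UTR alone and could be matched to RefSeq, the median distance to the 3' end was 240 nt, with an interquartile range of 1 to 1886 nt. Of these genes, 135 had a peak nearer to the 3' end than Bmp2, 198 nearer than Smurf1 and 213 nearer than Acvr1b. Bmp2 therefore sat at the middle of this range and Smurf1 and Acvr1b toward its far side. Among the 41 matched genes with a lower peak that touched the 5' UTR, the median distance to the 5' end was 134 nt, and 30 had a peak nearer to the 5' end than Smurf2. The 5' end of a gene can likewise lie beyond that of the listed transcript. All these distances were counted along the genome, so any intron in between is included.

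The rest of the pathway was read from a list of 161 genes, which includes the 5 genes above and was drawn up with earlier results of these data known. Of the 161 genes, 11 had a higher peak, 4 had a lower peak, none had both and 146 were not listed. Thus 11 of the 15 listed pathway genes had a higher peak, beside 80.7% of all listed genes, and 4 of 15 had a lower one, beside 20.7%, so that the split by direction was near that of the tables as a whole. A gene that was not listed may have had no m6A peak, a peak below the threshold or no expression, and these cannot be told apart here, so the number listed was not set against any expectation. The listed genes were spread over 7 roles, and the receptor-activated, common and inhibitory Smads (8 genes), the type II receptors (5 genes), the co-receptors (8 genes) and the TGF-beta, activin and nodal ligands (18 genes) had none. Bmp2 was the single listed gene of 15 BMP ligands, and Bmpr1b and Acvr1b were 2 of 7 type I receptors. With so few genes in each role, nothing was read from which roles had a listed gene.

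Outside the cell, Chrd, which encodes the BMP antagonist chordin, had a higher 3' UTR peak with a fold of 2.58 (the authors' p = 0.0457), the next largest change in the pathway after Bmp2. Chrd ranked 63 by fold but 480 by p-value among the 511 genes with a higher peak. Fbn1, which encodes the microfibril protein fibrillin-1 that holds latent TGF-beta complexes in the matrix, had a lower 5' UTR peak with a fold of 0.506 (the authors' p = 0.0372). Bmp2 and its antagonist chordin thus both had higher peaks in their 3' UTRs. A higher peak was held by 80.7% of all listed genes, and 53.6% of those had it in the 3' UTR alone. Nothing was therefore read from this pair. Among 15 ubiquitin ligases and deubiquitinases, Wwp1, with folds of 1.73 (the authors' p = 0.0209) and 1.69 (p = 0.0240) on 2 transcripts, and Nedd4l, with a fold of 1.59 (p = 0.0155), had higher 3' UTR peaks like that of Smurf1. Both encode ligases of the NEDD4 family. By fold Wwp1 and Smurf1 shared the rank of 265, while by p-value Wwp1 ranked 290 and Smurf1 18. Smurf2 was the only gene of this role with a lower peak.

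Inside the cell, 3 of 21 adaptors, kinases and phosphatases had a higher peak and 1 had a lower one. Ppm1a, which encodes a phosphatase that removes the activating phosphates of Smads, had a 3' UTR peak with a fold of 1.66 (the authors' p = 0.00155). Pmepa1, whose product sequesters receptor-activated Smads, had a 3' UTR peak with a fold of 1.58 (the authors' p = 0.0251), and Tab3, a partner of the kinase TAK1, had a coding peak with a fold of 1.73 (p = 0.0115). Ppp2cb, a catalytic subunit of the phosphatase PP2A, had a lower 5' UTR peak with a fold of 0.409 (the authors' p = 0.00288). Of 16 nuclear partners of the Smads, Crebbp, an acetyltransferase and coactivator, had a lower 5' UTR peak with a fold of 0.476 (the authors' p = 0.0191). Of 20 target genes, Id4, an inhibitor of helix-loop-helix factors, had a higher 3' UTR peak with a fold of 1.99 (the authors' p = 0.0372), while Id1, Id2 and Id3 were not listed.

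**Figure D3:**
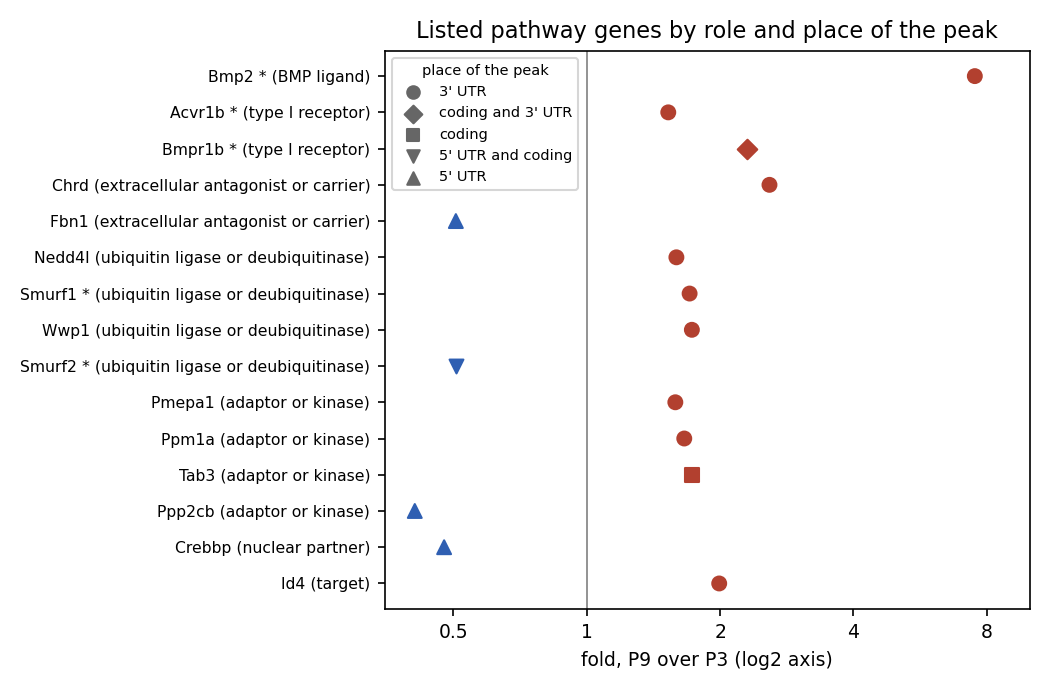
Fold of P9 over P3 (log2 axis) for the 15 listed pathway genes, ordered by role, at the transcript of smallest p; red is higher and blue lower in P9 MEFs, the shape of the point gives the place of the peak, and an asterisk marks the 5 genes described first. The 11 higher peaks are circles, a diamond and a square (3' UTR, coding or both). The 4 lower peaks are triangles, pointing up for the 5' UTR alone and down for Smurf2, which also carries the coding label.

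The direction of a peak in the pathway went with its place. Of the 11 higher genes, 9 had their peak in the 3' UTR alone, Bmpr1b had it across the stop codon and Tab3 had it in the coding sequence, so that 10 (90.9%) touched the 3' UTR, beside 71.4% of all genes with a higher peak. All 4 lower genes, Smurf2, Ppp2cb, Fbn1 and Crebbp, had a peak that touched the 5' UTR, beside 43 (32.8%) of all 131 genes with a lower peak. None of the 4 touched the 3' UTR, beside 25.2% of all genes with a lower peak. With the 5 genes left out, 6 of 7 higher genes touched the 3' UTR and 3 of 3 lower genes the 5' UTR. The tables as a whole have the same tendency, the pathway holds few genes, and its difference from the other genes was not tested. The median fold was 1.73 over the 11 higher pathway genes, beside 1.73 over all genes with a higher peak, and 0.491 over the 4 lower ones, beside 0.595 over all genes with a lower peak.

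**Figure D4:**
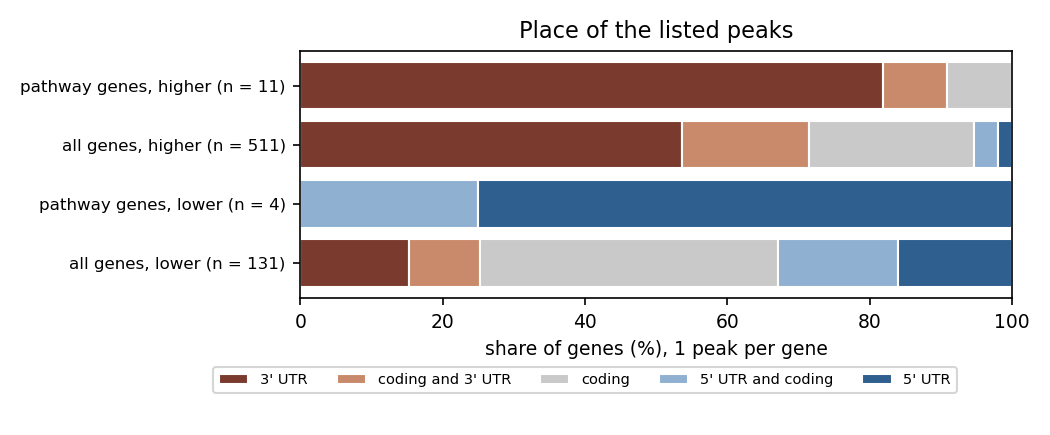
Share of genes (%) by the place of their listed peak, with 1 peak per gene, for the pathway genes and all listed genes in each direction; the number of genes is given beside each bar. The higher pathway genes are mostly in the 3' UTR (81.8% in the 3' UTR alone, against 53.6% of all higher genes), and the 4 lower pathway genes all touch the 5' UTR.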

How the data were processed

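RNA from P9 and P3 MEFs was fragmented and immunoprecipitated with an m6A antibody, and stranded libraries were made from the captured and the input RNA. The fold values are, as deposited, linear ratios of the groups the authors named Treatment and Control. The p-values, like the folds, were deposited as results of the authors' own comparison, and no file used here holds values per library, so nothing could be refitted. The other deposited columns used give positions, exon blocks, transcript lengths and the labels of the peak. Treatment was taken as P9 because the numbers of higher and lower rows match those in the paper. The build is mm10 per the labels. The sources used here do not name the peak caller, the test, any adjustment or the use of the input, all of which could move the folds and p-values.

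Rows were selected by gene name. Starts, counted from 0 in the files, are given counted from 1. Of several transcripts at 1 site, the one with the smallest p stands for it. Rows of 1 gene and direction whose blocks overlapped or touched were merged into sites, a step checked on simulated peaks. Ranks use the largest change or the smallest p of a gene. Gene ends came from RefSeq (GRCm38.p6), matched by symbol and chromosome for 1016 of 1043 rows. Distances to them were counted along the genome and not along the transcript. The genes, the pathway list and the alternatives were chosen with earlier results of these data known. The genes named are the 5 and every listed gene of the pathway list, and the NEDD4 family, the non-listed targets and the features compared along the genes were picked after the values were seen. No test was run. Sequences under the peaks were not used here, so the m6A consensus was not searched. Python 3.11.15, numpy 2.4.6, pandas 2.3.3 and matplotlib 3.10.9 were used.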

Additional observations from a re-analysis of the deposited data

How the results depend on the processing

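The 5 genes gave 8 higher and 1 lower row. At a change of at least 2-fold 5 higher and 0 lower rows were left (Bmp2 and Bmpr1b), with p limited to 0.01 there were 5 higher and 1 lower, and with p limited to 0.001 2 higher (both Smurf1) and 0 lower. Merged into sites they gave 4 higher and 1 lower. The pathway list gave 11 higher and 4 lower genes, 3 and 2 with p limited to 0.01, 3 and 2 at a change of at least 2-fold, and 7 and 3 without the 5 genes. Each of these settings counts fewer rows or larger units. With coding labels read first, 4 of the 8 higher rows lay in the 3' UTR, and with 3' UTR labels read first all 8 did, because the 4 Bmpr1b rows carry both labels. Ranked by p in place of fold, Bmp2 moved to 269 from 6, Acvr1b to 214 from 455 and Smurf1 to 18 from 265. On the transcript with the largest p, Bmpr1b had a fold of 2.08 in place of 2.30. Of 31 alternative values, 15 lay within the tolerance set for them, a ratio to the first value of at most 1.5 for counts and ranks and at most 1.1 for folds, and 16 lay outside it. Many of the 15 could not have differed. Bmp2, Acvr1b and Smurf2 have 1 row each, so their folds were the same on any choice of transcript. The single Smurf2 row also fixed the count of lower sites and of lower rows in the 3' UTR. The 15 are therefore no measure of robustness. Among the 15, the rank by p was 126 in place of 96 for Bmpr1b and 52 in place of 35 for Smurf2. No paired analysis was possible because no values per library were used here, and for the same reason no replicate could be left out. The search for the m6A consensus was not run, since no genome sequence was used here. Depth is unknown.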

Other observations

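SMURF1, SMURF2, WWP1 and NEDD4L are 4 of the 9 HECT ligases of the NEDD4 family, a list made after the values were seen. Of its 9 genes, 3 had only a higher peak, each in the 3' UTR, Smurf2 had only a lower peak, at the 5' end, and Nedd4, Itch, Wwp2, Hecw1 and Hecw2 were not listed. Of all listed genes 80.7% had a higher peak, and 53.6% of those had it in the 3' UTR alone, so 3 higher of 4 listed is near the share of the tables, and nothing is read from the family's counts.

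The deposited p-values are coarse, with 242 distinct values over 1043 rows, and 17 rows share the p-value of Bmp2. A rank by p-value therefore carries ties, 6 genes in the case of Bmp2 and none in the case of Smurf1.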
